A study of Mus musculus with 32 samples.

Results

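The ATF4 amino acid stress genes are 10 genes that answer amino acid shortage and endoplasmic reticulum (ER) stress, and their RNA levels were compared between mouse embryonic stem cells (mESCs) of wild type (WT) and mESCs deficient in Eed, a subunit of Polycomb repressive complex 2. They are Atf4, Atf3, Ddit3, Trib3, Chac1, Asns, Psat1, Phgdh, Slc7a11 and Slc7a5, taken by symbol from the RNA-seq tables, where all 10 were found among 24028 symbols. The study asked how regions free of DNA methylation are kept so at developmental genes, and RNA-seq was made to set RNA levels beside DNA methylation and chromatin marks. Of 32 samples in the series, 2 are RNA-seq libraries, 1 of WT and 1 of Eed-/- mESCs, and the other 30 are of assays not analysed here. Both RNA-seq samples are labelled with the TT2 strain, while Eed-/- samples of the other assays are labelled with another strain, so the line behind the Eed-/- RNA is uncertain. Both RNA-seq samples grew in 1 medium on gelatin, with serum, leukemia inhibiting factor, 2-mercaptoethanol, and added glutamine and non-essential amino acids. What the Eed mutation does to the transcript, the number of clones, and the time between the last passage and lysis were not given in the sources used here. Since each genotype has 1 library, nothing here is checked by replicates, no test was possible, and each value compares these libraries and not the genotypes. Nor can fewer cells of a type and less RNA per cell be told apart in such bulk RNA.

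ATF4 is the effector of the integrated stress response. When amino acids run short or unfolded proteins collect in the ER, stress kinases phosphorylate the translation factor eIF2alpha, most protein synthesis slows, and the Atf4 mRNA is translated more. ATF4 protein then binds C/EBP-ATF response elements together with other leucine zipper factors and raises genes that make, import and spare amino acids. Among the 10 genes, Atf4, Atf3 and Ddit3 (also called CHOP) encode transcription factors of this response. Trib3 encodes a pseudokinase that binds ATF4 and dampens it, and Chac1 an enzyme that degrades glutathione. Asns makes asparagine, Phgdh and Psat1 catalyse the opening steps of serine synthesis from a glycolytic intermediate, Slc7a11 imports cystine in exchange for glutamate, and Slc7a5 imports large neutral amino acids. Because ATF4 is set largely by translation, the level of Atf4 RNA does not measure ATF4 protein.

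The labels were checked on the targeted gene. RNA levels are given as deposited FPKM, which counts fragments relative to the length of a transcript and to all mapped fragments, so that genes compare per length. A change is the difference in log2(FPKM + 1) after quantile normalization, the library labelled Eed-/- minus WT, a scale that makes the change of weakly expressed genes look smaller. Eed had an FPKM of 63.0 in WT against 70.9 in the library labelled Eed-/-, a change of 0.40 (95% counting interval 0.26 to 0.53). Its RNA was thus not lower where the label says it is mutated, which checks the label only if the mutation removes the transcript. The study probed the loss of Eed at the chromatin mark H3K27me3, by western blot and ChIP-seq, which were not analysed here. Low FPKM values fell on steps of whole fragments, from which depths of about 7210000 (WT) and 6380000 fragments (library labelled Eed-/-) were recovered. All counting intervals rest on these depths, cover counting error only, and are approximate for genes with several transcripts. Most chromosomes had a median change between −0.07 and 0.12. That of chromosome 1 was −0.29, that of chromosome 8 −0.38, that of chromosome X 0.46, and that of Y, with only 6 genes tested, 1.77. Atf3 lies on chromosome 1 and Slc7a5 on chromosome 8, and the other 8 genes, spread over 6 other chromosomes, had a median change of −0.76. The part of these chromosome shifts in the change of Atf3 and Slc7a5 was not tested. Pluripotent cell markers summed to an FPKM of 1286 in WT against 1546 in the other library, with 8 of 8 over 1 in both. After quantile normalization 6 of them were higher in the library labelled Eed-/- and 2 lower, with the largest change, 1.30, for Zfp42. Primitive endoderm markers summed to 15.5 and 57.2 and were higher in the library labelled Eed-/- in 8 of 8, with Sox17 listed at 0 in WT. Trophoblast markers summed to 59.8 and 20.0, mostly through Tfap2c at 39.8 and 9.21, while Eomes was higher in the library labelled Eed-/- (0.478 and 1.93) and Elf5 was listed at 0 in both. Feeder fibroblast markers summed to 5.21 and 12.3, mostly through Thy1 at 0.976 and 6.97, while Col1a1 was lower in the library labelled Eed-/- (0.460 and 0.137), where Postn and Col3a1 were listed at 0, and Twist2 was listed at 0 in both. The part of such cells in the changes of the 10 genes was not tested.

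All 10 genes had lower RNA in the library labelled Eed-/- than in WT. Trib3, Ddit3 and Chac1 had the largest changes on the log2(FPKM + 1) scale, while by ratio Slc7a11 lay below Chac1, with overlapping counting intervals. Summed over the 10 genes, deposited FPKM was 630 in WT against 324 in the other library, and the sum of normalized values was 61.2% of WT. After quantile normalization, WT exceeded the other library 1.32-fold for Asns at the low end and 5.15-fold for Ddit3 at the high end, with a median of 1.70-fold. The median change of the 10 genes was −0.74, and 8.21% of the 14835 genes tested (mean normalized FPKM of at least 0.1, which all 10 genes passed) lay lower than that. On this scale 3 of the 10 genes were at least 2-fold lower, against 3.98% of all genes tested, and 0 of 10 were at least 2-fold higher, against 3.8%. Lower by any amount were 10 of 10, against 49.0% of all genes tested. The median over all genes tested was 0.01.

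**Figure D1:**
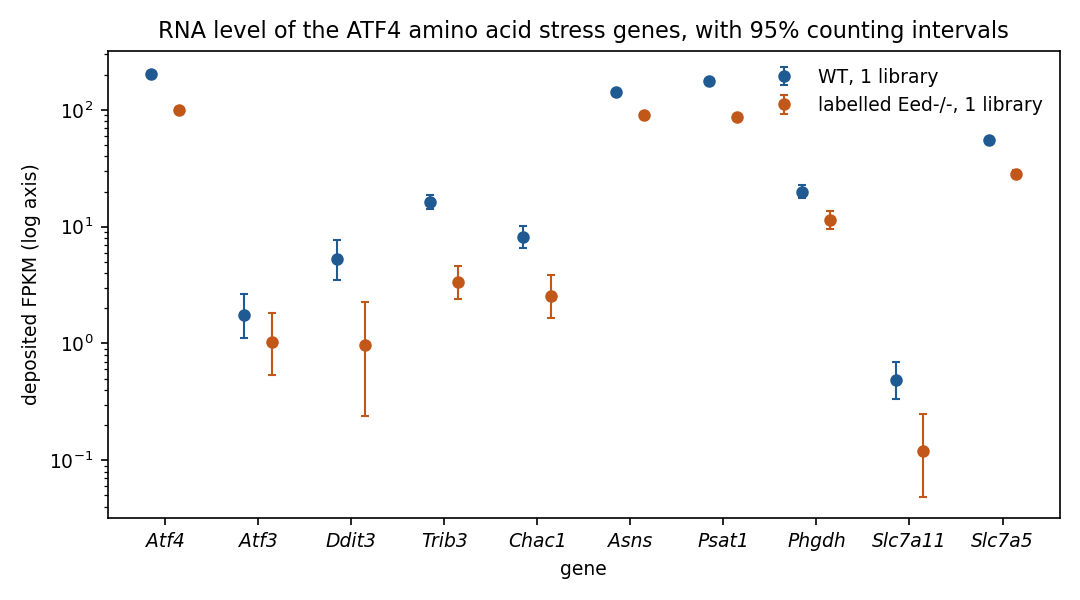
Deposited FPKM (vertical log axis) of each of the 10 genes in the WT library (blue) and the library labelled Eed-/- (orange), with 95% Poisson counting intervals from recovered fragment numbers. Every gene lies lower in the library labelled Eed-/-, and the intervals of Atf3 overlap.

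The sequence before each gene's start was read for the element that ATF4 binds. The rule took the genes by symbol and used no sequence. They were picked as genes of the ATF4 response, however, so the share with a match is a description and not independent of that choice. RefSeq promoter windows of GRCm38.p6, which is not the build of the RNA-seq, were found for 9 of the 10 genes, all but Slc7a5. The C/EBP-ATF response element was searched as TGATGNAA on both strands, and a stricter form, which is also counted in the former, as TGATGCAA. In the 250 bases before the start, TGATGNAA was found in 4 of 9 genes, namely Atf3, Chac1, Asns and Slc7a11, against 3.91% of all 27025 genes with a window. TGATGCAA was found in 3 of 9, Atf3, Chac1 and Slc7a11, against 0.918% of all genes. The ER stress element, searched as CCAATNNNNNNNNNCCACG on both strands, was found in 0 of 9 and in 0.130% of all genes. Slc7a11 held 2 matches, from −66 to −59 on the gene's strand and from −47 to −40 on the other strand, where −1 is the last base before the start. The match of Atf3 lay from −110 to −103 and that of Chac1 from −193 to −186, both on the other strand. The match of Asns, TGATGAAA, lay from −23 to −16 on the gene's strand. Trib3 held 1 match just inside its transcript, from 15 to 22 after the start, which raised the count to 5 of 9 in windows that run to 50 bases after the start, against 4.51% of all genes. The windows of Atf4, Ddit3, Psat1 and Phgdh held none, which says only that these letters are not in them. The 4 upstream sequences with a match, and 30 bases around the match of Trib3, are shown with the match in capitals, each 5′ to 3′ along the gene. They are chr1:191183334-191183583 (minus strand) for Atf3, chr2:119350992-119351241 (plus) for Chac1, chr6:7693210-7693459 (minus) for Asns, chr3:50443614-50443863 (minus) for Slc7a11 and chr2:152344028-152344057 (minus) for Trib3.
Atf3: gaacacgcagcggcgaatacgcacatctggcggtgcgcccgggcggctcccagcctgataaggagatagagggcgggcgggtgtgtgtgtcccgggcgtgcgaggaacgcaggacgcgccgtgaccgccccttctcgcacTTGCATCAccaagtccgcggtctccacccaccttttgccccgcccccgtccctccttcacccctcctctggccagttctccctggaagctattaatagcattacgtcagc
Chac1: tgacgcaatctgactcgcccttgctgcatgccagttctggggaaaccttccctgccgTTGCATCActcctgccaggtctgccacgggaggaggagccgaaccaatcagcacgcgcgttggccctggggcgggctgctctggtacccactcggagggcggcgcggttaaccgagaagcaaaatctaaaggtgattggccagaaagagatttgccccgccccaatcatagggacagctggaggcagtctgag
Asns: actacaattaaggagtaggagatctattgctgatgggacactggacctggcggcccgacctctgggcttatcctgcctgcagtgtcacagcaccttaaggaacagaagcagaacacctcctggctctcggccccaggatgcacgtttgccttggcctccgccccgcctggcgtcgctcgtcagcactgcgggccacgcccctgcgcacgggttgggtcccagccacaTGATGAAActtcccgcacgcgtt
Slc7a11: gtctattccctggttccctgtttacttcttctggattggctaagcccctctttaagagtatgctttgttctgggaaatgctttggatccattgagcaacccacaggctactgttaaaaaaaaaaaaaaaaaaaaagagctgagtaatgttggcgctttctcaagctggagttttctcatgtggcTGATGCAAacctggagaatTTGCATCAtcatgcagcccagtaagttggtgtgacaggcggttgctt
Trib3: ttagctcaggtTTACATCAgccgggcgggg
On the log2(FPKM + 1) scale, genes with a match before the start had both large and small changes. Chac1 changed by −1.27, while Slc7a11, Asns and Atf3 changed by −0.41, −0.40 and −0.40. By ratio, however, Slc7a11 was at 24.1% of WT, lower than Chac1 at 34.0%, though their counting intervals overlap. Trib3, whose match lies after the start, had the largest change of the 10, −1.87. Ddit3, Psat1, Atf4 and Phgdh, with no match in their windows, changed by −1.61, −0.76, −0.76 and −0.60. Whether matches go with changes was not tested.

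The transcription factor RNAs differed in both level and change. Atf4, on chr15:80085614-80087970 of mm9, was the most abundant of the 10 genes per length, with an FPKM of 203 in WT against 99.6 in the library labelled Eed-/-, or about 2260 and 980 fragments. After normalization its level was 58.9% of WT (95% counting interval 54.5 to 63.5%), a change of −0.76. Ddit3, the stress factor CHOP, on chr10:126727830-126733344, had an FPKM of 5.33 in WT against 0.961 in the other library, from about 27 and 4 fragments. Its normalized level was 19.4% of WT, the lowest ratio of the 10, though the few fragments leave a counting interval of 4.58 to 51.7%. The end of Ddit3 overlaps the tRNA synthetase gene Mars on the opposite strand by 68 bases, and it is not stated that the counting used strand, so reads there cannot be told apart. Ddit3 changed by −1.61, and 0.863% of all genes tested lay lower. Atf3, a stress-induced leucine zipper factor on chr1:192994175-193007219, had an FPKM of 1.77 in WT against 1.03 in the other library, from about 23 and 12 fragments. Its change of −0.40 had a counting interval of −0.96 to 0.22, which includes 0, and was −0.11 once the median of chromosome 1 was taken off. A difference of Atf3 was therefore not detectable at this depth. For Atf4 and Ddit3 the counting intervals stayed below 0.

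The regulator Trib3 and the glutathione-degrading enzyme Chac1, both on chromosome 2, were strongly lower in the library labelled Eed-/-. Trib3, on chr2:152163158-152169768 of mm9, had an FPKM of 16.3 in WT against 3.39 in the other library, or about 217 and 40 fragments. It had the largest change of the 10 on the log2 scale, −1.87 with a counting interval of −2.28 to −1.46, and 79 of the 14835 genes tested lay lower. Relative to WT its normalized level was 22.7% (counting interval 15.8 to 31.9%). Chac1, on chr2:119176965-119180117, had an FPKM of 8.24 in WT against 2.56 in the other library, from about 87 and 24 fragments. Normalized, Chac1 reached 34.0% of WT (20.7 to 54.0%), and its change was −1.27. The median change of all genes of chromosome 2 was 0.08, so the changes of Trib3 and Chac1 were −1.95 and −1.35 relative to it. Trib3, Ddit3 and Chac1 were the 3 genes at least 2-fold lower, and 308 of the 14835 genes tested lay lower than Chac1.

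**Figure D2:**
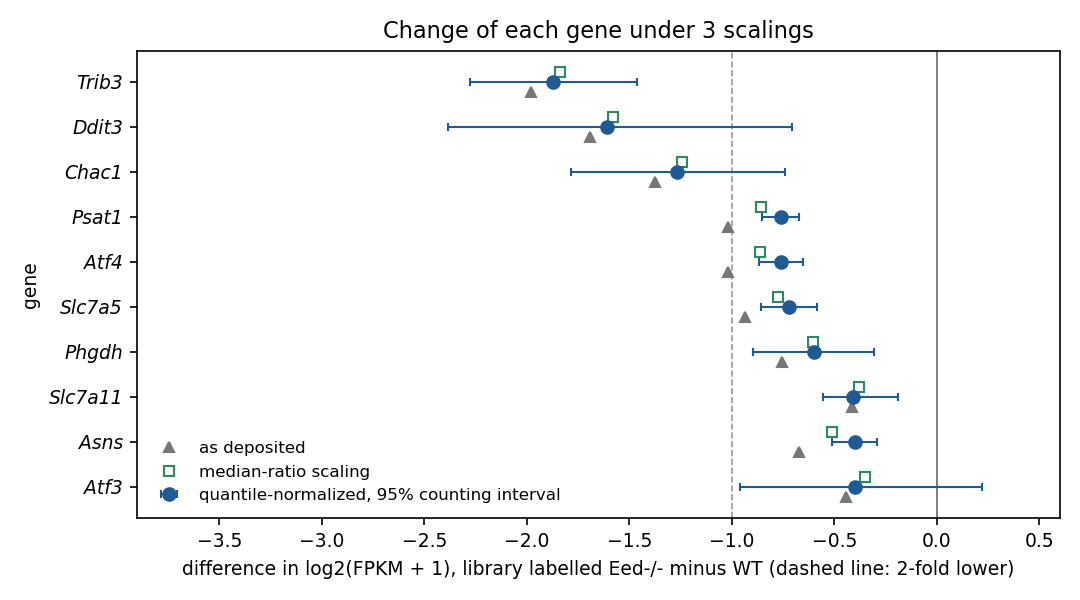
Change of each gene (horizontal axis, difference in log2(FPKM + 1), library labelled Eed-/- minus WT) after quantile normalization (circles with 95% counting intervals), as deposited (triangles) and after median-ratio scaling (squares). All points lie below 0, from −1.98 for Trib3 as deposited to −0.35 for Atf3 after median-ratio scaling, and only the interval of Atf3 crosses 0.

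The enzymes of amino acid synthesis were abundant and moderately lower, with normalized levels between 58.7% and 75.6% of WT. Psat1, the aminotransferase of serine synthesis on chr19:15979168-16021827 of mm9, had an FPKM of 177 in WT against 86.7 in the library labelled Eed-/-, or about 3103 and 1347 fragments. Its normalized level was 58.7% of WT (counting interval 55.0 to 62.6%), a change of −0.76. Asparagine synthetase, Asns, on chr6:7625169-7643254, had an FPKM of 144 in WT against 89.7 in the other library, or about 1901 and 1050 fragments. Of the 10 genes it differed least between the libraries, with 75.6% of WT (70.0 to 81.6%), and a change of −0.40, with 20.2% of all genes tested lower. Phgdh, the dehydrogenase that opens serine synthesis, on chr3:98117093-98143913, had an FPKM of 20.0 in WT against 11.4 in the other library, from about 247 and 125 fragments. That is 64.2% of WT after normalization (51.3 to 79.9%), a change of −0.60. A pseudogene on the opposite strand, Gm3329, overlaps Psat1 by 556 bases, and a long gene model on the opposite strand, Gm20388, spans Slc7a5 over 26543 bases. As for Ddit3, it is not stated that the counting used strand, so reads in these overlaps cannot be told apart. Phgdh was the only gene of the 10 with near-identical copies in mm9, 2 in number, and since reads could be split among them its values are uncertain. Psat1 and Asns, with the most fragments besides Atf4, had narrow counting intervals.

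Of the transporters, Slc7a5 was well expressed and Slc7a11 was weakly expressed. Slc7a5, on chr8:124405052-124431594 of mm9, had an FPKM of 54.9 in WT against 28.3 in the library labelled Eed-/-, or about 1319 and 601 fragments. Its normalized level was 59.9% of WT (counting interval 54.3 to 66.0%) and its change was −0.72, or −0.34 once the median of chromosome 8 was taken off. The overlap of Slc7a5 with Gm20388 is not covered by that interval. Slc7a11, the cystine and glutamate exchanger, on chr3:50168858-50247535, had the lowest level per length of the 10 genes, with an FPKM of 0.490 in WT against 0.120 in the other library. These values stand for about 32 and 7 fragments, because its longest coding transcript has 9227 bases. Its normalized level was 24.1% of WT (9.08 to 56.2%), a ratio lower than that of Chac1, though their counting intervals overlap. On the log2(FPKM + 1) scale its change was only −0.41, and with pseudocounts of 0.1 and 0.01 it was −1.43 and −1.96. Slc7a11 thus passed 2-fold with the small pseudocounts and not with 1, which gives it a high place among the 10 by ratio and a low place by change.

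The order of the levels was nearly the same in both libraries. In WT it ran from Atf4 through Psat1, Asns, Slc7a5, Phgdh, Trib3, Chac1, Ddit3 and Atf3 to Slc7a11, over a 414-fold range of deposited FPKM. In the library labelled Eed-/- the order differed in the places of Psat1 and Asns, at 86.7 and 89.7, and of Ddit3 and Atf3, at 0.961 and 1.03. In that library the counting intervals of Psat1 and Asns overlapped, and so did those of Ddit3 and Atf3. The plot of all genes tested shows where the 10 genes lie.

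**Figure D3:**
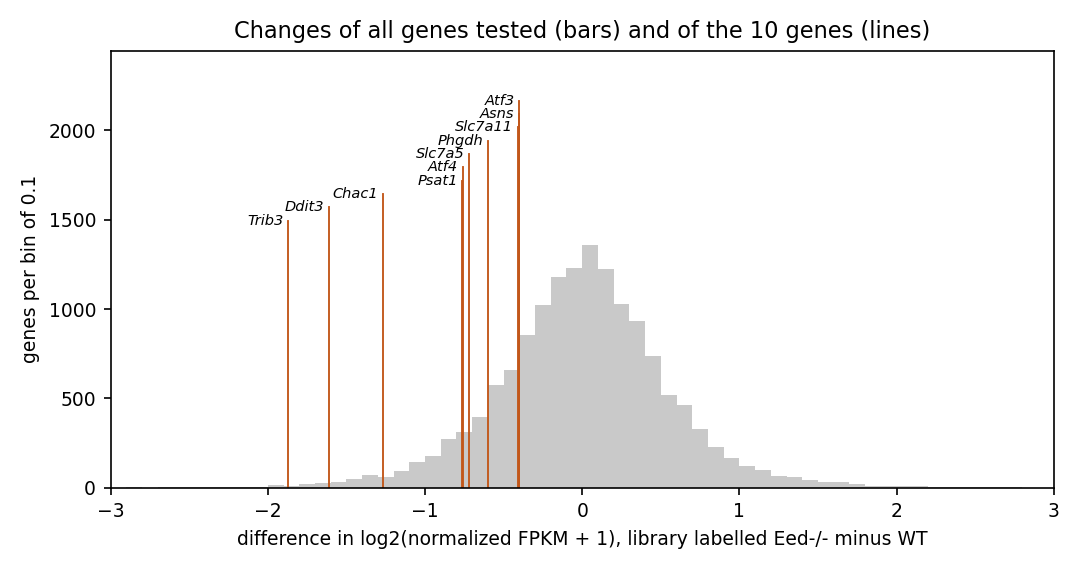
Number of genes (vertical axis) per bin of 0.1 in the difference of log2(normalized FPKM + 1), library labelled Eed-/- minus WT (horizontal axis), over the 14835 genes tested (grey bars; genes past either end of the axis are not drawn), with the 10 genes as orange lines. The 10 lines lie between −1.87 and −0.40, left of the median of all genes tested, 0.01.

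Other genes of the pathway were described by lists, from the sensors upstream of ATF4 to its targets and neighbouring responses. Beside the counts of every list stand the shares over all genes tested. Of these, 49.0% were lower by any amount, 3.98% at least 2-fold lower and 3.8% at least 2-fold higher. The upstream list of eIF2alpha kinases, their partners, the phosphatase subunits, eIF2 and eIF2B had no common direction. Of its 15 genes, 6 were lower and 9 higher, 0 passed 2-fold either way, and the median change was 0.06, which turned to −0.18 as deposited and −0.02 after median-ratio scaling. Eif2s2, the beta subunit of eIF2, had an FPKM of 65.2 in WT against 108 in the library labelled Eed-/- (change 0.97). The kinase PKR, encoded by Eif2ak2, had 3.31 and 5.72 (0.77), and Gcn1l1, the partner of the amino acid sensing kinase GCN2, had 20.8 and 11.6 (−0.63). The named genes of the upstream list thus lay on both sides of 0.

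Further regulators and secreted factors downstream of ATF4 were mostly lower. Of 13 listed genes 12 passed the filter, of which 11 were lower and 1 higher, 1 was at least 2-fold lower, and the median change was −0.62. Of the 12 genes, 3 lie on chromosome 8, and with each chromosome's median taken off the list's median was −0.45. With pseudocounts of 0.1 and 0.01, 2 and 4 of the 12 were at least 2-fold lower, against 1778 and 1989 of the 14835 genes tested. Stc2, a secreted glycoprotein induced by ER stress, had an FPKM of 10.8 in WT against 3.17 in the library labelled Eed-/- (change −1.39). The leucine zipper factor Atf5 had 10.5 and 5.02 (−0.81), and Gdf15, a stress-induced cytokine of chromosome 8, had 2.28 and 0.855 (−0.77, or −0.39 relative to its chromosome).

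Amino acid transporters and enzymes outside the 10 genes leaned the same way with smaller medians. Of 9 other transporters 7 were lower and 2 higher, 0 passed 2-fold, and the median change was −0.53. The count at least 2-fold lower depended on the scale, since it was 3 as deposited and 3 with pseudocounts of 0.1 and 0.01. Over all genes tested, 801 of 14842 were at least 2-fold lower as deposited, and 1778 and 1989 of 14835 with those pseudocounts. Slc1a4, a transporter of neutral amino acids such as serine and alanine, had an FPKM of 8.98 in WT against 3.64 in the other library (change −0.99). The glutamine transporter Slc38a1 had 20.7 and 9.06 (−0.95). Slc3a2, the heavy chain that both Slc7a11 and Slc7a5 need at the cell surface, had 123 and 56.9 (−0.85). A list of 14 enzymes covers serine, glycine, folate-bound carbon, proline and transsulfuration pathways, and also counts the aminotransferases Got1 and Gpt2. Of the 14, 13 were lower and 1 higher, 2 were at least 2-fold lower (Gpt2 and Mthfd2), and the median was −0.34. The alanine aminotransferase Gpt2, on chromosome 8, had an FPKM of 24.9 and 6.85 (−1.56, or −1.18 relative to its chromosome), and the mitochondrial folate enzymes Mthfd2 and Shmt2 had 60.4 and 23.6 (−1.12) and 71.7 and 33.9 (−0.86).

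Cytosolic aminoacyl-tRNA synthetases, which charge tRNAs and include known targets of ATF4, were lower in 18 of 20 genes, with 3 at least 2-fold lower and a median change of −0.61. Gars had an FPKM of 250 in WT against 94.6 in the library labelled Eed-/- (change −1.14), Wars had 58.7 and 22.8 (−1.13), and Aars had 223 and 90.2 (−1.06). Of the 20, 6 lie on chromosome 1 or 8, and without them 12 of 14 were lower and the median was −0.16. Of the 12863 genes tested that are not assigned to chromosome 1, 8 or X, 6090 were lower. Aars, on chromosome 8, changed by −0.68 relative to the genes of that chromosome.

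Most of the listed ER chaperones and genes of the ATF6 and XBP1 arms were higher in the library labelled Eed-/-. The list leaves out genes of ER stress that are counted elsewhere, such as Stc2 and the 10 genes, which were lower. Of 16 ER chaperones and genes of the ATF6 and XBP1 arms, 14 were higher and 2 lower, 0 were at least 2-fold higher, and the median change was 0.42. It was 0.26 as deposited and 0.40 after median-ratio scaling, so the direction of the median held under these scalings. Single genes did not all keep theirs. As deposited, Pdia4, Hspa5 and Calr changed by −0.21, −0.07 and −0.02, and after median-ratio scaling Pdia4 changed by −0.05. Creld2, an ER-resident protein, had an FPKM of 35.0 in WT against 55.7 in the library labelled Eed-/- (change 0.87), and Manf, an ER stress-induced secreted factor, had 33.7 and 51.8 (0.82). Atf6 itself, on chromosome 1, was the 1 gene at least 2-fold lower, with 8.90 and 3.43 (−1.05, or −0.76 relative to its chromosome). The difference between this list and the 10 genes was not tested.

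The remaining lists had no shared direction. Of 10 NRF2 antioxidant genes 7 were lower and 3 higher, 2 were at least 2-fold lower (0 without genes of chromosomes 1, 8 and X) and 1 higher, and the median was −0.07. Hmox1, heme oxygenase, had an FPKM of 80.8 and 31.3 (−1.13), glutathione reductase, Gsr, had 84.8 and 34.8 (−1.06), and malic enzyme, Me1, had 1.71 and 4.68 (1.16). Hmox1 and Gsr lie on chromosome 8, and relative to its genes they changed by −0.74 and −0.68. Immediate early genes, which rise when cells are handled or stimulated, were lower in 6 and higher in 5 of the 11 that passed the filter. Of them 0 passed 2-fold, and the median was −0.32, which turned to 0.05 without genes of chromosomes 1, 8 and X. With pseudocounts of 0.1 and 0.01, 2 were at least 2-fold lower, against 1778 and 1989 of the 14835 genes tested. Ier3 had 9.97 and 4.93 (−0.76), Ier2 56.9 and 29.1 (−0.74) and Junb 27.2 and 14.2 (−0.73). Ier2 and Junb lie on chromosome 8, and relative to its genes they changed by −0.36 and −0.35.

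**Figure D4:**
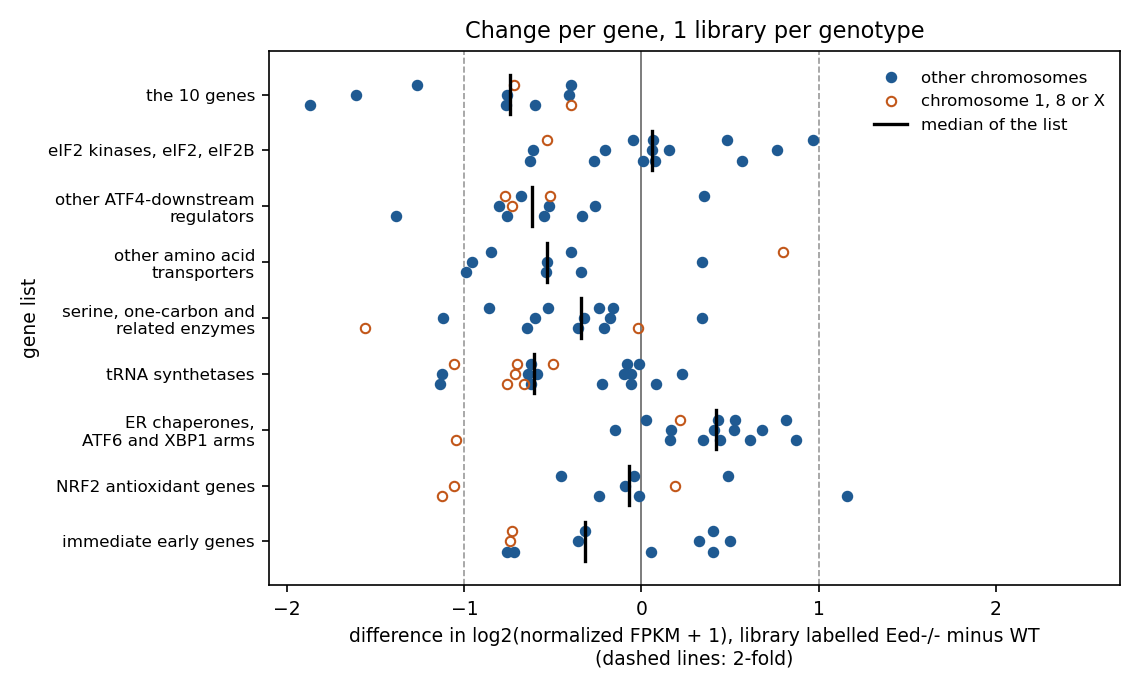
Change of each gene that passed the filter (horizontal axis, difference in log2(normalized FPKM + 1), library labelled Eed-/- minus WT), by gene list (vertical axis); open circles are genes of chromosomes 1, 8 and X, filled circles are genes of other chromosomes or with none assigned, and black bars are list medians. The 10 genes have the lowest median, −0.74, and the ER chaperone list the highest, 0.42.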

How the data were processed

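RNA was measured by strand-specific, ribosomal RNA-depleted RNA-seq in 1 WT and 1 Eed-/- mESC sample, grouped by their labels. The authors mapped reads to mm9 with TopHat and deposited FPKM values per gene symbol from Cufflinks. The submitters' processing notes name TopHat2 2.0.11 and Cufflinks 2.2.1. The annotation is not given in the sources used here, and the files hold no counts. Each file has 24525 lines, and lines that repeat a symbol (268 symbols) were added up. After quantile normalization of the 2 libraries, changes were taken as differences in log2(FPKM + 1). Genes entered at a normalized FPKM averaging 0.1 or more, and 2-fold was the threshold. No test was made with 1 library per genotype.

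The 10 genes, the 8 pathway lists and the markers were chosen with earlier results of these data known. From each pathway list the text names the genes past 2-fold (at most 6, largest first) and, where fewer than 3 passed, those with the largest changes up to 3.

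The step between low FPKM values gave the depth, over 5053 genes with a single annotated transcript of 1000 bp or more, each length shortened by 180 bp. Of such values, 79.5% of 840 (WT) and 81.2% of 947 (library labelled Eed-/-) were within 0.1 of whole fragments. Small non-coding RNAs held 97.1% and 95.2% of the summed FPKM. Counting intervals at 95% are exact (Poisson for a level, Clopper-Pearson for the ratio at a fixed total) and use the longest coding transcript. Gene positions are those of GENCODE vM1 (NCBIM37, that is, mm9), with 20642 symbols matched. A near-identical copy is an alignment by minimap2 2.31 that covers at least 80% of a gene's longest coding transcript at 95% identity. Promoter sequences are from RefSeq on GRCm38.p6, 250 bases before to 50 after each start. The computations were tested on simulated data. The scripts ran on Python 3.11.15 with pandas 2.3.3, numpy 2.4.6 and scipy 1.17.1, and figures were drawn with matplotlib 3.10.9. Alternatives were other scalings, pseudocounts, filters and thresholds, duplicate symbols or small RNAs left out, changes relative to the chromosome, and a longer promoter window. Leaving out chromosomes 1, 8 and X was chosen after seeing the data.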

Additional observations from a re-analysis of the deposited data

How the results depend on the processing

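The direction of the 10 genes did not reverse under any alternative that was run. Of 97 values of single genes, 88 moved by less than their counting interval or not at all, 9 moved by more and 0 reversed. The 88 include values under settings that only took genes in or out by level or chromosome, where a single gene's change cannot move. With FPKM as deposited, where the median of all genes tested was −0.09, the median change of the 10 genes was −0.98 and 5 of 10 were at least 2-fold lower, Atf4 and Psat1 joining at −1.02 each. Of the 14842 genes then tested, 801 were at least 2-fold lower and 455 higher, against 590 and 564 of 14835 with quantile normalization. With a 1.5-fold threshold 7 of the 10 genes were lower, against 1841 of the 14835 genes tested. Pseudocounts of 0.1 and 0.01 each gave 4 of the 10 genes at least 2-fold lower, against 1778 and 1989 of the 14835 genes tested. Of 80 list medians 3 reversed, namely that of the eIF2 list, to −0.176 as deposited and −0.0166 after median-ratio scaling, and that of the immediate early genes, to 0.0532 without chromosomes 1, 8 and X. Counts of genes past the threshold in the pathway lists stayed within 1.5 times in 164 of 192 and moved in 28. Among those that moved, with small pseudocounts, were the other transporters (0 to 3) and the other regulators downstream of ATF4 (1 to 2 and 4). Many counts that stayed were 0 in both settings, and some settings only filtered genes, so the 164 say little on stability.

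No paired analysis was possible because the RNA-seq samples are 1 per genotype, and for the same reason none was left out. Depth limits Atf3, Ddit3 and Slc7a11, with about 12, 4 and 7 fragments in the library labelled Eed-/-.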
